A study of Mus musculus with 149 samples.

Results

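The response of mouse lung to thymic stromal lymphopoietin (TSLP), an epithelial cytokine, was followed here in 9 genes outside the mucin and mucus packaging genes: Retnlb, Slc26a4, Fxyd4, Capn9, Corin, Scin, Lemd1, Guca2a and Duoxa1. They are 9 of the 13494 genes measured, and were selected on results of these same arrays. The exact contrast is not stated, but responses to TSLP and buffer were in view. Differences of the 9 genes that involve those groups are therefore given as values with no test. For the 9, only differences among saline groups were tested. Marker genes of other cells and goblet cell genes, named below, were also tested between some buffer, saline and TSLP groups. The saline groups may have been in view as well, so their p-values are not independent evidence if the genes were also chosen on them. Each gene had 1 probe set that named it alone. The label "epithelial" rests on general knowledge of the genes, because whole-lung arrays do not say which cell an RNA came from.

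Whole-lung RNA was measured on Affymetrix arrays, 1 array per animal, in BALB/c mice, 73 naive and 76 sensitized. One arm of the study was naive and the other sensitized to ovalbumin (OVA). Each animal was challenged with saline, with 0.1% MSA (an abbreviation the labels leave unexpanded, called buffer here), or with TSLP at 150, 500 or 1500 ng, and its lung was taken at 6 or 24 h. Of the 20 groups, 12 have 8 arrays, 5 have 7 and 3 have 6. The labels do not say whether the TSLP was dissolved in the MSA buffer, so it is unsettled which of buffer and saline is its vehicle control, and both are used as references.

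In allergic airways, TSLP acts on dendritic cells, T cells and innate lymphoid cells, which then release IL-13 and related cytokines. IL-13 signals through STAT6 in airway epithelium, where club cells take on goblet cell features, make mucus and alter ion transport and surface defence. The genes described here do not encode mucus itself, and whether they depend on IL-13 or STAT6 was not tested. Slc26a4 encodes pendrin, an anion exchanger of the apical membrane, and Fxyd4 a small regulator of the sodium pump. Guca2a encodes guanylin, a peptide that activates guanylate cyclase C, and Retnlb a secreted resistin-like protein of goblet cells. Duoxa1 encodes the maturation factor that brings the oxidase Duox1 to the cell surface, where it makes hydrogen peroxide. Capn9 encodes a calcium-dependent protease of digestive epithelium, Corin a membrane serine protease best known from heart muscle, and Scin a calcium-dependent actin-severing protein of secretory cells. Lemd1 encodes a protein with a LEM domain, found mainly in testis and tumours.

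Because the 9 genes moved together, their promoter windows (GRCm38.p6) were searched on both strands for 3 motifs. Each window runs from 250 bases before to 50 after its own reference point. That point is not always the start of the RefSeq gene span, for example in Slc26a4 and Capn9. A window was found for 8 of the 9 genes, and Lemd1 had a pair of them, so 9 windows of 300 bases were searched. The STAT6 motif, TTC and GAA with 4 bases between them, stood in 1 of the 9, in Capn9, against 6.95% of 32851 windows of this length. The FOXA motif, TGTTTAC or TATTTAC, stood in 2 of the 9, in Guca2a and Scin, against 6.54%. The TATA box TATAAA stood in 1 of the 9, in Slc26a4, against 13.6%. No stretch was shared by 2 of these motifs. The 4 windows that hold a match are shown 5′ to 3′ on the strand of the gene, with the match in capitals. A match describes the letters of the window and is no evidence of binding.
Capn9, chr8:124575861-124576160, plus strand: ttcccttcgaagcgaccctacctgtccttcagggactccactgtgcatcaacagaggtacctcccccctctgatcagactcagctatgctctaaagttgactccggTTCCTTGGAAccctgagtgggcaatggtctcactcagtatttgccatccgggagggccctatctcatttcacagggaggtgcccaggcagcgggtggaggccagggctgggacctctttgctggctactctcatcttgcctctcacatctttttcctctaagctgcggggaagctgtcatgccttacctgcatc
Guca2a, chr4:119637482-119637781, plus strand: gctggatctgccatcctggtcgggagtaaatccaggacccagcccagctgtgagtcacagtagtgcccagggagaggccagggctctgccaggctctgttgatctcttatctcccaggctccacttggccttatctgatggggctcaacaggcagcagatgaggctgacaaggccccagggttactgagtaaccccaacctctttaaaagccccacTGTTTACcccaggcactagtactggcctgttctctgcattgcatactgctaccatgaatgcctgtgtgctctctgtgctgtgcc
Scin, chr12:40134179-40134478, minus strand: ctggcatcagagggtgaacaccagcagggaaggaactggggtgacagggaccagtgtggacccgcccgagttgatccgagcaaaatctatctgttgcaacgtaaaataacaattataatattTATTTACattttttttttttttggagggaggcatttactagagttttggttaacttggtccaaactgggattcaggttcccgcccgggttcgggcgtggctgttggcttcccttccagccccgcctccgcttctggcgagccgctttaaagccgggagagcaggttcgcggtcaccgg
Slc26a4, chr12:31559935-31560234, minus strand: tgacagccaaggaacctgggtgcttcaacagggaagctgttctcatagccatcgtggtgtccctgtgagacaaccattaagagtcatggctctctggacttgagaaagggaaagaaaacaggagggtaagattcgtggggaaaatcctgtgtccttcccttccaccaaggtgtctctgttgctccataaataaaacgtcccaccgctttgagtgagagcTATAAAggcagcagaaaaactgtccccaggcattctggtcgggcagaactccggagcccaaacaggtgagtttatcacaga
The STAT6 match in Capn9 lies at positions -144 to -135 from the reference point of its window. The FOXA matches lie at -34 to -28 in Guca2a and at -128 to -122 in Scin. The TATA box of Slc26a4 lies at -31 to -26. It is inside the RefSeq gene span, which on the minus strand starts at base 31560055.

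Some arrays stood apart from their groups. The naive 500 ng array of replicate 8 at 6 h had Clca1, a goblet cell gene, at 13.15, against a median of 5.73 in the other naive animals of that group. The lowest OVA saline array at 6 h had 13.63. Fxyd4 was 10.77 there, over the lowest OVA saline array at 6 h (8.85), and at most 7.73 in the rest of the group. Capn9 was 7.85, under the lowest OVA saline array (8.31) and at most 5.53 in the rest of the group. It was the only gene of the 9 under that mark. The others lay over it, for example Retnlb (8.58 against 8.39), Slc26a4 (13.4 against 12.66) and, narrowly, Lemd1 (6.42 against 6.36). In 6 arrays, the squamous keratins Krt4 and Krt13 lay more than 2 log2 units over their medians, with Krt13 at 10.4 or more against at most 6.06 in the other 143. None of the 6 was a saline array. The beta-actin 3′ minus 5′ difference, which rises as RNA is degraded, had group means from 1.25 to 2.57. All values below are log2 expression from RMA, and their precision is limited by the number of arrays. A lower level in whole lung can mean fewer cells that make the RNA or less RNA per cell, and the arrays cannot tell these apart.

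In saline mice, OVA sensitization came with higher levels of all 9 genes at both times. By limma with Benjamini-Hochberg adjustment over all genes, 9 of 9 rose at 6 h and 9 of 9 at 24 h, where 10.9% and 14.0% of all genes did. The median difference of the 9 was 3.46 at 6 h and 3.77 at 24 h, while the median of all genes was -0.01 and -0.03. The OVA and naive arrays did not overlap for 8 of the 9 at 6 h (1.19% of all genes were higher without overlap) and for 9 of 9 at 24 h (5.65%). The exception was Duoxa1 at 6 h, whose lowest OVA array, 6.32, lay under the highest naive one, 6.74.

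Of the ion transport genes, Slc26a4 in naive saline mice ran from 8.39 through a median of 10.04 to 11.96 at 6 h, and from 7.76 through 9.05 to 9.64 at 24 h. In OVA saline mice it ran from 12.66 through 13.39 to 13.87 at 6 h and from 12.98 through 13.66 to 13.78 at 24 h. Every OVA array thus lay over every naive one, and the OVA animals were close together. The rise was 3.46 (SE 0.35, adjusted p = 3.16e-14 by limma) at 6 h and 4.58 (SE 0.37, adjusted p = 1.48e-20) at 24 h. Fxyd4 went from 6.98 ± 0.31 (SD, n = 8) in naive to 10.5 ± 1.13 (SD, n = 8) in OVA mice at 6 h. At 24 h it went from 6.49 ± 0.22 (SD, n = 8) to 11.27 ± 0.75 (SD, n = 7). Its 24 h rise of 4.77 (SE 0.44), 27.3-fold, was the largest of the 9 at that time.

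The secreted products differed in size of response. Retnlb in naive saline mice ran from 5.19 through a median of 5.4 to 6.13 at 6 h, and in OVA saline mice from 8.39 through 9.5 to 11.56. It rose by 4.16 (SE 0.49, adjusted p = 3.45e-11 by limma) at 6 h, and the 24 h rise was 4.34 (SE 0.51, adjusted p = 1.56e-11). The spread of Retnlb between OVA animals was wide, 0.91 at 6 h and 1.21 at 24 h (SD), against 0.3 and 0.23 in naive animals. Guca2a was nearly constant in naive saline mice, 6.54 ± 0.1 (SD, n = 8) at 6 h, and 8.44 ± 0.99 (SD, n = 8) in OVA mice. Guanylin RNA rose by 1.89 (SE 0.31) at 6 h and by 2.0 (SE 0.32) at 24 h, the smallest rise of the 9 at 24 h.

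The proteases and the actin-severing gene were near the low end of the scale in naive lungs. Capn9 ran from 5.12 through 5.37 to 6.14 in naive saline mice at 6 h and from 8.31 through 10.04 to 10.76 in OVA mice. Its rise of 4.47 (SE 0.35, adjusted p = 5.14e-21 by limma), 22.1-fold, was the largest of the 9 at 6 h, and at 24 h it rose by 3.77 (SE 0.36). Scin rose by 3.55 (SE 0.35) at 6 h, less than Capn9, and its 24 h value of 4.15 (SE 0.36) was the larger of the pair. Corin rose less, by 2.03 (SE 0.36) and 2.29 (SE 0.37). Corin is known from heart muscle. Of the heart muscle markers, 0 of 8 passed the limma test in either saline comparison (0 at 6 h and 1 at 24 h had an unadjusted p under 0.05), and their median differences were -0.35 and -0.55. Within groups, the correlation of Corin with the mean of those markers was r = 0.14 over all arrays. The part of heart tissue in the Corin values was not tested.

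Lemd1 at 6 h was 5.27 ± 0.46 (SD, n = 8) in naive and 7.98 ± 1.21 (SD, n = 8) in OVA saline mice. Its rise was 2.70 (SE 0.42, adjusted p = 3.35e-07 by limma) at 6 h, against 2.47 (SE 0.43, adjusted p = 1.94e-06 by limma) at 24 h. Duoxa1 rose least of the 9 at 6 h, by 1.73 (SE 0.42, adjusted p = 0.00115), and its 24 h rise was 2.12 (SE 0.44, adjusted p = 5.53e-05). Its partner Duox1 rose too, by 0.82 at 6 h (SE 0.23, adjusted p = 0.00389) and, at 24 h, by 1.05 (SE 0.23, adjusted p = 0.000181).

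In naive saline mice 1 of 9 members differed between 24 h and 6 h, where 61.2% of all genes did. That member was Slc26a4, which fell by 1.01 (SE 0.35, adjusted p = 0.00983 by limma). Without replicate 2 of the naive saline 6 h group, which held its highest value of 11.96, the difference was -0.72 and missed the threshold (adjusted p = 0.0695). With the beta-actin difference as a covariate it was -1.06 (adjusted p = 0.0598), and that difference itself was 2.42 at 6 h and 1.37 at 24 h. The main fit took 1 spread per gene from all 20 groups, so its SE does not measure the spread of naive animals alone. The median SD within groups was 0.32 in naive and 1.1 in OVA groups for Fxyd4, and 0.16 and 0.83 for Guca2a. For Lemd1 it was 0.43 and 1.17, and for Slc26a4 0.69 and 0.42. Other tests called other members. With only these groups fitted, limma called 3, Fxyd4 (-0.48, adjusted p = 0.00319), Guca2a (0.19, adjusted p = 0.00743) and Lemd1 (-0.49, adjusted p = 0.0262), and Slc26a4 missed (adjusted p = 0.053). By exact two-sided permutation, 4 had an unadjusted p under 0.05: Fxyd4 (0.00186), Guca2a (0.00218), Lemd1 (0.026) and Slc26a4 (0.0486). In OVA saline mice 0 of 9 members differed by limma between the times, against 61.0% of all genes, and 0 had an unadjusted p under 0.05. With array weights 2 did, and without replicate 1 of the OVA saline 6 h group 1 did, Capn9. The effect of OVA did not differ detectably between the times for any member, 0 of 9 by limma against 0.0222% of all genes. At an unadjusted p under 0.05 there were 2, Slc26a4 with 1.13 (SE 0.51) and Fxyd4 with 1.25 (SE 0.62). The 95% intervals of this difference reached 2.13 for Slc26a4 and 2.47 for Fxyd4.

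**Figure D1:**
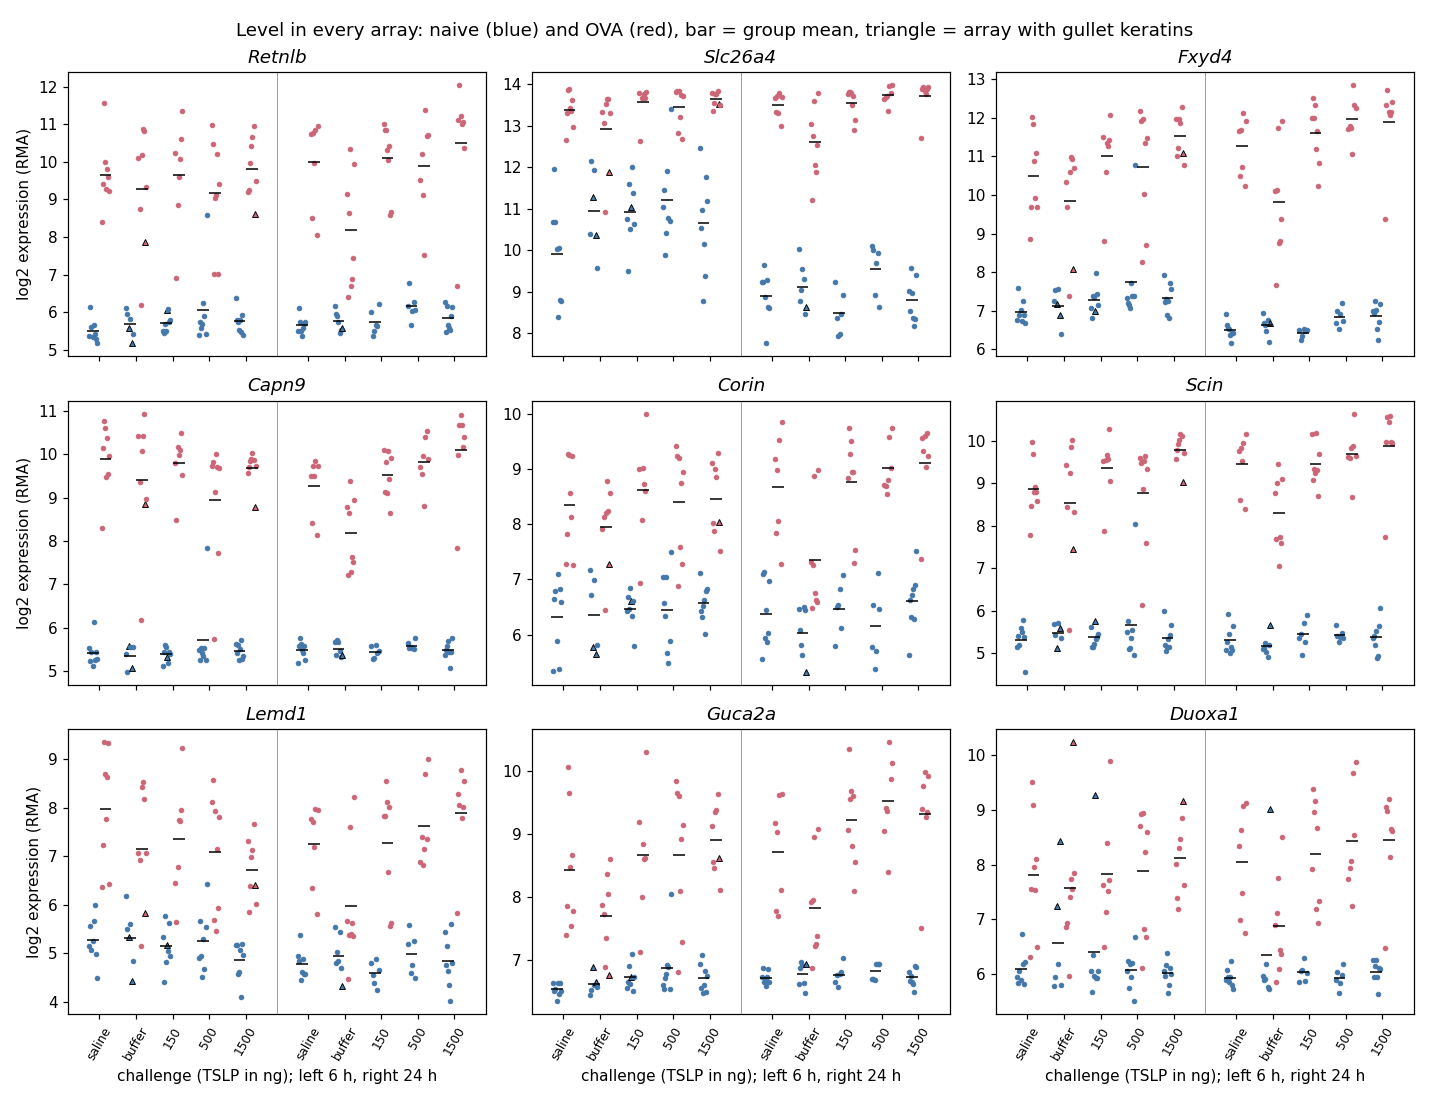
Log2 expression of each of the 9 genes in every array, by challenge, at 6 h (left of each panel) and 24 h (right), with naive arrays in blue, OVA arrays in red, group means as bars and the 6 arrays with gullet keratins as triangles. OVA groups lie over naive groups in every panel, and the OVA buffer group at 24 h has the lowest mean of the OVA groups for 8 of the 9 genes.

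In OVA mice at 24 h, the 9 genes were higher after 1500 ng TSLP than after buffer, but much of that distance was also the distance from buffer to saline. Against buffer, the 9 differences ran from 1.09 to 2.32 with a median of 1.75. Against saline, all 9 were again higher, but by 0.21 to 0.82 with a median of 0.52. The buffer group lay under the saline group for all 9, by -1.80 to -0.89 with a median of -1.18. These comparisons share their groups, and the genes were chosen with them in view, so their directions are no independent evidence.

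Retnlb shows the pattern in single animals. In the OVA groups at 24 h it ran from 6.41 through a median of 8.03 to 10.33 after buffer, and from 8.06 through 10.75 to 10.96 after saline. After 1500 ng it ran from 6.71 through 11.05 to 12.05. The animals of the 3 groups overlapped, and the lowest array of the 1500 ng group lay under the buffer median. The difference of 1500 ng was 2.32 (SE 0.51) from buffer and 0.52 (SE 0.53) from saline. Capn9 differed by 1.91 (SE 0.36) from buffer and 0.82 (SE 0.38) from saline, the largest distance from saline among the 9. Slc26a4 was already at 13.49 after saline, and its differences were the smallest, 1.09 (SE 0.37) and 0.21 (SE 0.38).

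The remaining members kept the same order of the 3 groups. Fxyd4 was 9.81 ± 1.48 (SD, n = 8) after buffer, 11.27 ± 0.75 (SD, n = 7) after saline and 11.89 ± 1.13 (SD, n = 7) after 1500 ng. Lemd1 was 5.97 ± 1.27 (SD, n = 8), 7.25 ± 0.86 (SD, n = 7) and 7.90 ± 0.98 (SD, n = 7) in the same groups. Corin differed by 1.75 (SE 0.37) between 1500 ng and buffer and by 0.44 (SE 0.38) between 1500 ng and saline. The corresponding pairs were 1.59 and 0.42 for Scin, 1.48 and 0.58 for Guca2a, and 1.57 and 0.39 for Duoxa1. The beta-actin difference was 1.28 in buffer, 1.27 in saline and 1.60 in 1500 ng mice, and with it as a covariate the differences ran from 1.11 to 2.26 against buffer and from 0.22 to 0.74 against saline.

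One animal of the 1500 ng group, replicate 1, was the lowest of its group for all 9 genes. It had Retnlb at 6.71, where the next array had 10.38, and Capn9 at 7.85, where the next had 9.99. Without it the difference from saline grew for all 9 members, to 1.15 for Retnlb, 1.20 for Capn9, 1.04 for Fxyd4 and 0.37 for Slc26a4. The lowest Capn9 value of the group then lay over the highest saline value, 9.84. All other members still overlapped the saline group, for example Retnlb with 10.38 against 10.96 and Corin with 9.04 against 9.84. The array was singled out for its low values, and no share of all genes without overlap is given without it. Without replicate 7 of the OVA saline group, the lowest saline array for 8 of 9 members, the difference fell instead, to 0.20 for Retnlb and 0.17 for Duoxa1. Leaving out any 1 array, the 9 differences stayed between 0.12 and 1.20 against saline, between 0.89 and 2.95 against buffer, and between -2.12 and -0.69 for buffer against saline.

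Markers of other cells also moved between these groups. Of all 13494 genes, limma called 2829 higher and 2362 lower after 1500 ng than after buffer. Against saline it called 2138 higher and 1796 lower after 1500 ng, and 33 higher and 86 lower after buffer. By limma, 4 of 4 eosinophil markers were lower after 1500 ng than after saline (median -1.26), and 3 of 4 were lower after buffer than after saline (-1.53). Their mean level ran from 7.39 to 9.10 in saline, from 6.25 to 8.02 in buffer and from 6.59 to 7.16 in 1500 ng animals. Of 4 fat markers, 4 were lower after 1500 ng than after buffer (-2.31) and 1 was lower than after saline (-1.29). Of 6 alveolar type 1 markers 4 were lower after 1500 ng than after buffer (-0.13). So were 2 of 6 macrophage (-0.06), 2 of 7 club cell (-0.12), 2 of 3 thyroid (-0.4) and 1 of 4 eosinophil markers (-0.01). Higher were 3 of 6 ciliated cell (0.34), 2 of 3 tuft cell (0.47) and 1 of 4 ionocyte markers (0.15). Of 6 mast cell and basophil markers, 3 were higher and 1 was lower (0.22). Of the 10 goblet cell genes 5 were higher after 1500 ng than after buffer (0.87) and 0 than after saline (0.24). The part of these cells in the members' differences was not tested.

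At 24 h the lower doses were also set against both references. From buffer, the 9 differences had a median of 1.35 at 150 ng and 1.65 at 500 ng. From saline, the medians were 0.11 and 0.36. Retnlb after 150 ng was 1.91 (SE 0.49) over buffer and 0.11 (SE 0.51) over saline. Guca2a kept the largest distance from saline at both doses, 0.49 (SE 0.32) at 150 ng and 0.80 (SE 0.33) at 500 ng. Over both times, both sensitizations and all 3 doses, 0 of 216 differences of a member from buffer or saline had groups without overlap. At 24 h in OVA mice, 4.54% of all genes were higher in 1500 ng than in buffer mice without overlap, and 5.98% higher than in saline mice. At 6 h these shares were 8.95% and 9.94%. The shares cover only higher levels after 1500 ng in OVA mice. For the lower doses, naive mice and lower levels no share over all genes is given, so the count of 0 cannot be set against one there.

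**Figure D2:**
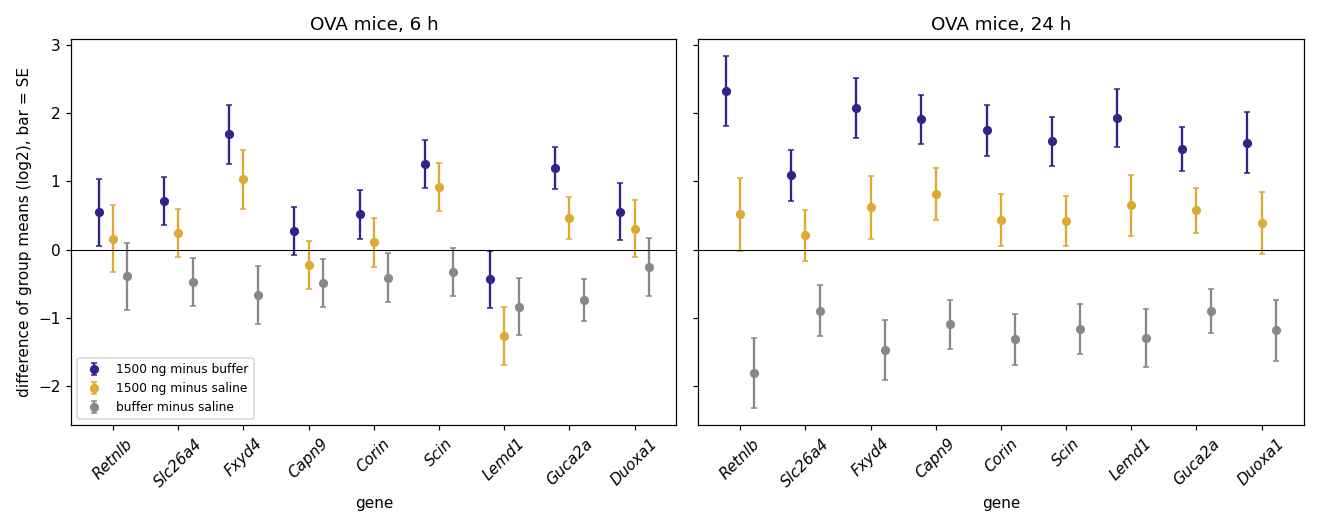
Difference of group means (log2, bars are SE) in OVA mice at 6 h and 24 h for each gene: 1500 ng minus buffer, 1500 ng minus saline, and buffer minus saline. At 24 h the distance from buffer runs from 1.09 to 2.32 and that from saline from 0.21 to 0.82, while buffer lies under saline for all 9 genes.

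At 6 h the members differed from each other. Fxyd4 in OVA mice was 9.84 ± 1.37 (SD, n = 8) after buffer, 10.5 ± 1.13 (SD, n = 8) after saline and 11.53 ± 0.56 (SD, n = 8) after 1500 ng. It lay 1.69 (SE 0.43) over buffer and 1.03 (SE 0.43) over saline, with all 8 arrays over the saline mean. Scin lay 1.25 (SE 0.35) over buffer and 0.92 (SE 0.35) over saline, also with 8 of 8 arrays over the saline mean. Guca2a lay 1.20 (SE 0.31) over buffer and 0.47 (SE 0.31) over saline.

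Lemd1 went the other way at 6 h. It ran from 6.36 through 8.20 to 9.35 after saline and from 5.86 through 6.69 to 7.66 after 1500 ng, and all 8 of the 1500 ng arrays lay under the saline mean. The difference was -1.26 (SE 0.42) from saline and -0.43 (SE 0.42) from buffer. The remaining 5 members lay between -0.22 and 0.31 of saline, Capn9 at the low end and Duoxa1 at the high end.

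The beta-actin difference moved with dose at 6 h: it was 2.45 in OVA saline, 2.57 in OVA buffer and 1.26 in OVA 1500 ng mice. With it as a covariate, the difference of 1500 ng from saline was 0.94 (SE 0.55) for Fxyd4, 1.15 (SE 0.45) for Scin and -0.63 (SE 0.53) for Lemd1. For Guca2a it was 0.23 (SE 0.40), and for Lemd1 against buffer 0.27 (SE 0.56), with the sign turned. The part of RNA quality in the 6 h differences was not tested beyond this. Replicate 3 of the OVA buffer group was its lowest array for 8 of 9 members, with Capn9 at 6.19 and Retnlb at 6.20. Without it the distance from buffer was 0.12 for Retnlb, -0.19 for Capn9, 0.82 for Scin and 1.33 for Fxyd4.

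Naive mice showed little of this. At 24 h, 1500 ng differed from saline by -0.10 to 0.36 and from buffer by -0.31 to 0.57 across the 9 genes. At 6 h the values were -0.41 to 0.73 from saline and -0.55 to 0.23 from buffer. The value of 0.73 belonged to Slc26a4, whose naive buffer group at 6 h lay 1.03 over saline. Its means after buffer, 150, 500 and 1500 ng were 10.95, 10.93, 11.20 and 10.65, against 9.92 after saline, and all of these groups overlapped. The 500 ng group at 6 h holds the naive animal described above. With it, Fxyd4 was 0.78 (SE 0.43) and Slc26a4 1.28 (SE 0.35) over saline, and without it 0.35 (SE 0.42) and 0.97 (SE 0.35).

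Ordered by their means, the 10 OVA groups lay over the 10 naive groups for all 9 genes. The step between the lowest OVA and the highest naive mean was widest for Scin, 2.63, and narrowest for Duoxa1, 0.31. For 7 of the 9 it was wider than the mean SD within groups, and Lemd1 and Duoxa1 were the exceptions. The lowest OVA group was buffer at 24 h for 8 of the 9 and buffer at 6 h for Guca2a. The highest group was 1500 ng at 24 h for Retnlb, Capn9, Corin, Scin and Duoxa1, and 500 ng at 24 h for Slc26a4, Fxyd4 and Guca2a. For Lemd1 it was saline at 6 h, at 7.98. Sorting by mean makes the 19 steps between neighbours small by construction. Between 0 and 2 of them per gene exceeded that SD of single animals, so the order of close neighbours is not to be read as a difference. After buffer at 24 h, OVA and naive arrays did not overlap for 5 of the 9 (1.01% of all genes were higher without overlap), and after 1500 ng at 24 h for 8 of the 9 (5.94%).

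Among OVA animals of the same group the 9 genes were high and low together. Over the 74 OVA arrays without gullet keratins, the 36 pairwise correlations of deviations from the group means ran from 0.58 to 0.97, with a median of 0.81. In 9 of 10 OVA groups, 1 animal was the lowest for 7 or more of the 9 genes, which held for 0 of 10 naive groups. On the high side this contrast was not seen. Replicate 8 of the naive 500 ng group at 6 h was the highest for all 9. Among OVA groups, 1 animal was the highest for 8 genes after saline at 6 h and for 7 after 150 ng at 6 h. In the remaining OVA groups it was 4 to 6. Capn9 and Scin formed the closest pair, at 0.97. Corin, Lemd1, Guca2a and Duoxa1 correlated with each other at 0.81 to 0.92, but with Capn9 and Scin at only 0.58 to 0.67. All correlations here are descriptions: arrays share their normalization, and genes measured on one array share its RNA. Without replicate 1 of the OVA 1500 ng group at 24 h, the OVA median was 0.8.

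Naive animals varied less for 8 of the 9 genes. Their levels were also low, with naive group means of at most 6.16 for Retnlb and 5.71 for Capn9. The median SD within groups was 1.37 in OVA and 0.31 in naive groups for Retnlb, and 0.74 and 0.18 for Capn9. Slc26a4 was the reverse, with 0.42 in OVA and 0.69 in naive groups. The median of the 36 correlations over 69 naive arrays was 0.38, and without the 500 ng animal described above it was 0.21. The correlation of Retnlb with Fxyd4 in naive arrays was 0.85 with that animal and 0.61 without it. That of Capn9 with Scin, the closest pair in OVA arrays, was 0.69 with it and 0.18 without it.

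**Figure D3:**
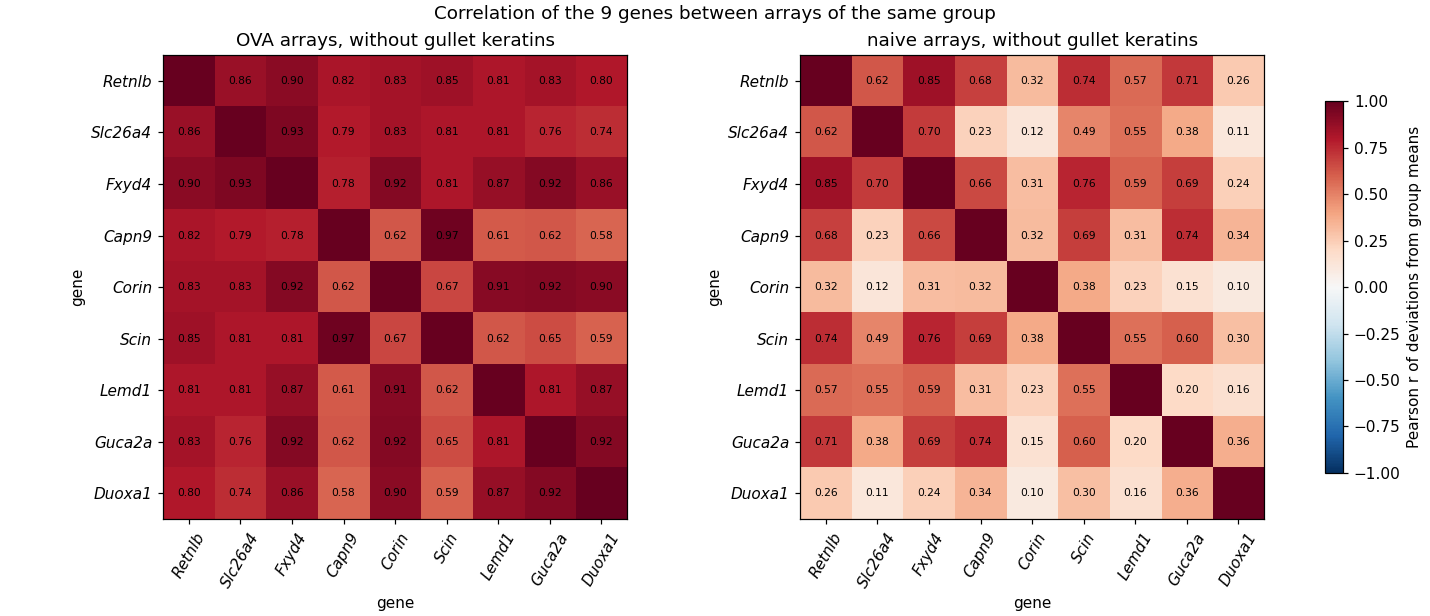
Pearson r between the 9 genes, computed on deviations from group means over 74 OVA arrays (left) and 69 naive arrays (right), both without the arrays with gullet keratins. In OVA arrays r runs from 0.58 to 0.97, with Capn9 and Scin the closest pair.

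The genes outside the 9 whose 20 group means followed each member most closely came from several classes. For Capn9 the nearest was Muc5ac, a gel-forming mucin, at r = 0.995, followed by Atp10b (0.994) and Ern2 (0.994), a stress sensor of the endoplasmic reticulum in mucous cells. For Retnlb they were AA467197 (0.992), Ern2 (0.990) and Chil4 (0.990), a chitinase-like protein. For Scin they were Chia1 (0.995), an acidic chitinase, AA467197 (0.994) and Cd209e (0.993). For Slc26a4 they were Slc6a20a (0.980), Bhlha15 (0.979) and the sodium-glucose transporter Slc5a1 (0.978). For Fxyd4 they were AA467197 (0.994), Tmem213 (0.992) and Map3k7cl (0.990), and for Corin they were Dok2 (0.989), Sox9 (0.987) and Tmem213 (0.986). For Lemd1 they were Abcc6 (0.983), Sapcd2 (0.981) and Ckmt1 (0.981). For Guca2a they were Panct2 (0.989), Msx3 (0.988) and the cytokine Il5 (0.987). Group means contain the OVA difference, so high values are common.

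Within groups, over all arrays, some of these relations were weaker. Capn9 and Muc5ac correlated at 0.88, while Fxyd4 and Map3k7cl correlated at 0.63. The closest gene within groups, a choice made after the values were seen, was Msx3 for Guca2a (0.92), Panct2 for Fxyd4 (0.94), Chil4 for Scin (0.88) and Chil1 for Slc26a4 (0.83). For Lemd1 it was Dcstamp (0.88), a membrane protein of fusing macrophages and osteoclasts. For Duoxa1 it was Duox1 (0.93).

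Duoxa1 was high in arrays that carry gullet keratins. Duoxa1 and Duox1 lie head to head on chromosome 2, and their RefSeq gene spans overlap by 754 bp (GRCm38.p6). In naive buffer mice at 6 h, replicates 4 and 6 had Duoxa1 at 7.25 and 8.44, against at most 6.18 in the rest of the group. In naive buffer mice at 24 h, replicate 8 had 9.02 against at most 6.18. Replicate 5 of the naive 150 ng group at 6 h had 9.27 against at most 6.34, and replicate 7 of the OVA buffer group at 6 h had 10.24 against at most 7.85. In naive mice these were the highest Duoxa1 values of their groups.

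Without the 6 arrays, the difference of 1500 ng from buffer in naive mice at 6 h changed from -0.55 (SE 0.46) to 0.09 (SE 0.43). In OVA mice at 6 h it changed from 0.56 (SE 0.42) to 0.80 (SE 0.37), and at 24 h it was 1.57 both ways. The saline comparisons hold none of these arrays. Within groups, Duoxa1 correlated with the mean of the gullet list at 0.57 over all arrays and at 0.26 over the 143 without gullet keratins. With Duox1 the values were 0.93 and 0.90.

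**Figure D4:**
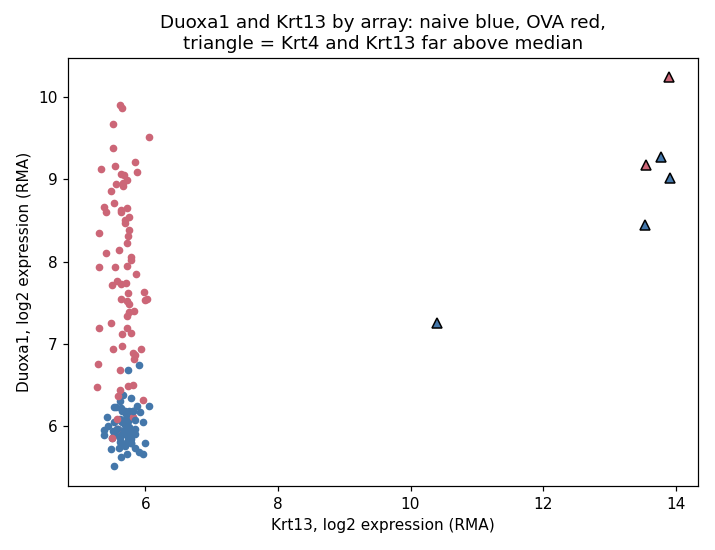
Duoxa1 against the squamous keratin Krt13 (both log2 expression) in each array, naive in blue and OVA in red, with the 6 arrays with gullet keratins as triangles. These 6 have Krt13 at 10.4 or more and Duoxa1 from 7.25 to 10.24, while the other 143 have Krt13 at 6.06 or less.

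The lists of relatives and pathway partners differed in how many genes rose, against 10.9% of all genes at 6 h and 14.0% at 24 h. Of all 13494 genes, 1699 fell at 6 h and 2209 at 24 h. Of 10 measured goblet cell genes that respond to IL-13, 10 rose by limma between naive and OVA saline mice at 6 h and 10 at 24 h, with median differences of 2.81 and 2.54. Clca1 rose by 8.31 (SE 0.62), Gcnt3 by 3.64 (SE 0.34), Muc5ac by 3.59 (SE 0.33) and Fcgbp by 2.88 (SE 0.25) at 6 h. Of 12 airway ion transport genes, 5 rose at 6 h and 2 at 24 h, while 3 fell at each time, with medians of 0.04 and 0.06. The 3 that fell were the subunits of the epithelial sodium channel: Scnn1a by -0.22, Scnn1b by -0.38 and Scnn1g by -0.39 at 6 h. Slc5a1 rose by 2.22 (SE 0.27) and Kcne3, a potassium channel subunit, by 1.16 (SE 0.20).

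Among the 6 other FXYD genes, 2 were higher and 2 lower at 6 h. Fxyd3 rose by 0.51 (SE 0.14) and Fxyd1 fell by 0.27 on the log2 scale. Of 12 other calpain genes, 1 rose at 6 h, Capn13, while 2 fell at that time and 1 at 24 h. Of 7 gelsolin family genes, 3 rose at 6 h, the largest being Vill with 0.52 (SE 0.13). Of 7 LEM domain genes 1 rose at each time, Ankle1, by 0.78 (SE 0.13) at 6 h. Of 3 guanylin pathway genes 0 passed at 6 h by limma (1 at an unadjusted p under 0.05), and at 24 h all 3 did: Guca2b rose by 0.36 (SE 0.09) while Prkg2 (-0.70, SE 0.12) and Pde5a (-0.20, SE 0.06) fell. Of 8 natriuretic peptide pathway genes, 0 rose and 2 fell at 6 h. Cyba and Duox1 were the measured genes of the DUOX list, and both rose at both times, Cyba by only 0.13 (SE 0.05) at 6 h. Of the resistin family 1 other gene was measured, and its difference of -0.42 at 6 h did not pass.

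Markers of other cells were compared between the same saline groups, where 1477 of all 13494 genes rose and 1699 fell at 6 h. At 24 h 1885 rose and 2209 fell. Of 6 alveolar type 1 markers 0 rose and 5 fell at 6 h, with a median of -0.16. Of 7 club cell markers 2 rose and 2 fell, and of 6 ciliated cell markers 2 rose and 0 fell. Of 5 alveolar type 2 markers 1 rose and 2 fell. Of 4 ionocyte markers 2 rose, with a median of 0.14, and of 3 tuft cell markers 2 rose, with 0.33. Of 6 macrophage markers 3 rose at 6 h and 5 at 24 h, with medians of 0.37 and 0.60. Of 4 eosinophil markers 0 passed by limma at 6 h (1 at an unadjusted p under 0.05), with a median of 0.33. The same list had 3 that rose at 24 h, with a median of 2.42. At 24 h Ccr3 rose by 2.64 (SE 0.30) and Prg2 by 2.60 (SE 0.31), more than Guca2a, Duoxa1, Corin and Lemd1 did. Of 7 gullet, 7 skeletal muscle, 6 mast cell and basophil and 4 fat markers 0 passed by limma at either time, with 1 gullet marker at 6 h under an unadjusted p of 0.05 and 0 of the rest, and of 3 thyroid markers 0 rose and 1 fell at 6 h. At 24 h the thyroid marker Tg rose by 0.48 (SE 0.12, adjusted p = 0.00138 by limma) and Iyd fell by 0.48 (SE 0.13, adjusted p = 0.00159). Thyroid expresses Slc26a4, and within groups Slc26a4 correlated with the thyroid markers at -0.07. The part of these cells in the members' differences was not tested.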

How the data were processed

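The deposited table holds log2 expression values that the authors made with RMA, per the submitters' processing notes; its version and any filter were not given in the sources used here. It holds 26166 probe sets on 73 naive and 76 OVA arrays, with array medians from 8.97 to 9.16. Total RNA was labelled with a 3'IVT kit, per the labels' protocols. Of the probe sets, 22892 named 1 gene in the platform annotation, 260 several and 3014 none. The highest-mean probe set stood for each of 13494 genes. No arrays were identical.

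The fit, limma 3.58.1 in R 4.3.3, estimated a mean for each group from the whole set of arrays, followed by eBayes, with two-sided p-values adjusted by Benjamini-Hochberg over all genes at 0.05. It was tested on simulated data that gave each gene the same spread in all groups. The members have unlike spreads in OVA and naive groups, which that test does not cover. The members and lists were chosen with earlier results of these data known. Named genes were the 9 members, the 3 non-members whose group means followed each most closely, and up to 4 genes of each list with the smallest p in the saline comparisons. Alternatives were other probe set rules, quantile normalization, a filter of the dimmest 40% of genes, a trended and robust prior, array weights, a block for the replicate number, the compared groups alone, a beta-actin covariate, leaving out arrays with gullet keratins, exact permutation tests and leaving out each array.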

Additional observations from a re-analysis of the deposited data

Results flagged for a closer look

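In 23 of 180 gene and group combinations (12.8%), the highest or lowest animal stood far from the rest of its group. About 1 in 20 would do so by chance, and the 9 genes share their arrays, so these are not independent. The 23 came from 9 arrays.

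The OVA 1500 ng animal of replicate 1 at 24 h was far under its group for all 9 genes: Retnlb was 6.71, Slc26a4 12.7, Fxyd4 9.38, Capn9 7.85, Corin 7.36, Scin 7.74, Lemd1 5.82, Guca2a 7.51 and Duoxa1 6.48. The naive 500 ng animal of replicate 8 at 6 h was far over its group for 5 genes: Retnlb was 8.58, Fxyd4 10.77, Capn9 7.85, Scin 8.04 and Guca2a 8.06.

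Of the gullet keratin arrays, 3 were far over their groups for Duoxa1, at 9.27 (naive 150 ng, 6 h), 10.24 (OVA buffer, 6 h) and 9.02 (naive buffer, 24 h). The last was also high for Scin, at 5.65, and a gullet keratin array of the OVA 1500 ng group at 6 h was low for Capn9, at 8.79. Replicate 5 of the naive saline group at 6 h was high for Capn9, at 6.14, and for Duoxa1, at 6.74. Capn9 was low at 6.19 in replicate 3 of the OVA buffer group at 6 h. Slc26a4 was low at 12.63 in replicate 2 of the OVA 150 ng group at 6 h.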

How the results depend on the processing

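Over 443 alternative values, the OVA difference in saline mice stayed between 1.49 and 4.97 for the 9 genes, with adjusted p at most 0.00956 (limma). Without the dimmest 40% of genes, 1 member was left, Slc26a4, so 1 was called at 6 h and 1 at 24 h. For 24 h against 6 h in naive saline mice, where 1 member was called, beta-actin as covariate left 0. The count was 3 with only the groups compared. By the exact permutation test it was 4, but at an unadjusted p under 0.05, so that count is not like the others. Leaving out 1 array gave 0 to 1, with 0 without naive saline 6 h replicate 2. For OVA saline mice, where 0 were called, array weights gave 2: Fxyd4 (0.92, adjusted p = 0.0304) and Scin (0.73, adjusted p = 0.0391). Leaving out 1 array gave 0 to 1, the 1 being Capn9 (-0.85, adjusted p = 0.038) without OVA saline 6 h replicate 1. The causes were not tested. With beta-actin as covariate, the naive 6 h differences of 1500 ng from saline became 0.01 for Guca2a and 0.02 for Lemd1.

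With the replicate number as a block, the counts were 9, 9, 1, 0 and 0, as without it. Same-numbered naive and OVA saline animals did not deviate together: r ran from -0.51 to 0.19 over 8 pairs at 6 h and from -0.30 to 0.28 over 7 pairs at 24 h, and 0 animals correlated best with their own number.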
